A study of Homo sapiens with 4 samples.

Results

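Genes of intracellular calcium release and store entry were examined in SKOV3 cells, an established human ovarian cancer line, grown either flat on tissue culture plates (TCP) or as tumor spheroids on polymer X. The 10 genes encode the 3 IP3 receptors (ITPR1, ITPR2, ITPR3), the lysosomal channel TPCN1, the store sensors STIM1 and STIM2, the plasma membrane channel subunits ORAI1, ORAI2 and ORAI3, and the store pump ATP2A2. These are 10 of the 19475 gene symbols in the deposited table, and all 10 passed the filter on low values. The genes were chosen by name with the TCP and polymer X values of these same libraries already known, and for each gene the RefSeq transcript was selected on the highest mean level over the 4 libraries. The contrast between polymer X and TCP is therefore given for them as a description, without a p-value.

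The endoplasmic reticulum is the main calcium store of a non-excitable cell. IP3, made by phospholipase C below activated receptors, opens the IP3 receptors and lets calcium into the cytosol, while the SERCA pumps, of which ATP2A2 is the widely expressed form, return it to the store. When the store empties, STIM proteins sense the loss through their luminal domain, cluster at contacts with the plasma membrane and open ORAI channels, a route known as store-operated calcium entry. TPCN1 is a cation channel of endosomes and lysosomes that has been linked to calcium release by the messenger NAADP.

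The sample labels give 2 libraries of SKOV3 cells on TCP at day 0 and 2 libraries of spheroids on polymer X at day 8, all from unmodified cells of 1 line. Polymer X is a polymer thin film on which SKOV3 cells detach from the plate surface and grow as spheroids, and TCP is the control surface. By the study's methods, spheroids were dissociated with accutase at intervals during culture. The substrate and the day changed together, so their parts cannot be told apart. The labels describe serum replacement for every library, whereas the methods of the study keep SKOV3 stocks in fetal bovine serum, so the medium of the TCP cells is uncertain. Values are FPKM, the sequenced tags on the exons of a transcript scaled to its length and to the tags of the library, and the libraries were scaled to between 38402000 and 44921000 tags. Nothing in the labels says that the replicates came from separate cultures, so the spread between them may be technical. On the log2 scale, over the tested genes replicates correlated at 0.998 on TCP and 0.997 on polymer X, and libraries of different conditions at 0.862 or less. Of 10 epithelial and SKOV3 markers, 5 lay below an FPKM of 1 in both TCP libraries and 4 in both polymer X libraries. EPCAM, CDH1 and MUC16 were among the 5 on TCP, whereas KRT8, KRT18, ERBB2 and PAX8 were well above 1 in every library. The summed FPKM of the 10 was 641 to 654 on TCP and 1207 to 1258 on polymer X. Of the 6 that passed the filter, 3 were higher and 3 lower on polymer X. Mean FPKM went from 202 to 887 for ERBB2 and from 265 to 144 for KRT8. The summed FPKM of 16 markers of blood, vascular, muscle, liver and neuronal cells was 0.492 to 0.521 on TCP and 1.49 to 1.68 on polymer X, with each of the 16 below 1 in every library. CD3E, MS4A1, HBB and HBA1 were listed at 0 throughout, and PTPRC and PECAM1 reached at most 0.530 and 0.573 on polymer X. The part of other cell types in the results was not tested.

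ITPR1, TPCN1, ORAI3 and ITPR3 were the members that were much higher on polymer X, by 10.8-fold, 6.24-fold, 6.08-fold and 2.66-fold in mean FPKM. ORAI2 and ORAI1 were also higher, by 1.88-fold and 1.23-fold, and the remaining members were lower, with changes in mean FPKM of -8.26% for ITPR2, -22.7% for STIM1, -29.3% for STIM2 and -40.6% for ATP2A2. Release channels and ORAI subunits thus stood higher in spheroids, with ITPR2 as the exception, while the STIM sensors and the ATP2A2 pump stood lower. In bulk RNA, a change in the share of cells that express a gene and a change in RNA per cell cannot be told apart.

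**Figure D1:**
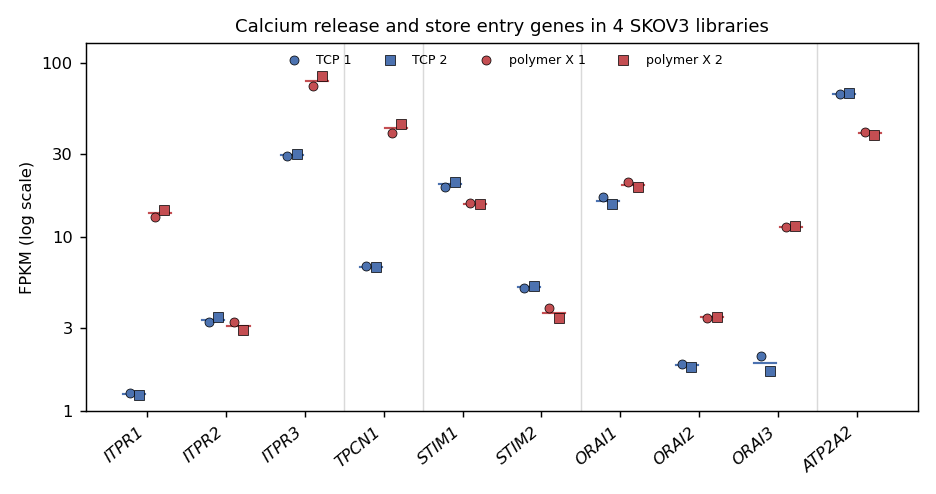
FPKM (log scale) of the 10 genes in each of the 4 libraries, with TCP in blue and polymer X in red, replicate 1 as circles, replicate 2 as squares and the group mean as a line. ITPR1 sits near 1.26 in both TCP libraries and above 13 on polymer X, ATP2A2 is the highest gene on TCP at 66.3, and ITPR3 is the highest on polymer X at 78.6.

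Among the IP3 receptors, ITPR1 showed the largest difference. ITPR1 (NM_002222, hg19 chromosome 3, 4535032 to 4889524, plus strand) encodes the type of IP3 receptor best known from neurons. Its FPKM was 1.27 and 1.25 in the TCP libraries, and 13.0 and 14.3 in the polymer X libraries. Both TCP values lay an order of magnitude below both polymer X values, and the replicates stayed close to each other. The means were 1.26 ± 0.0170 (SD, n = 2) on TCP and 13.7 ± 0.945 (SD, n = 2) on polymer X. On the scale of log2(FPKM + 1), which understates the change of a gene with a low level, ITPR1 had a log2 fold change of 2.70 (replicate SD 0.09), at percentile 99.1 of all tested genes. These levels rest on 488 and 560 tags on TCP against 5201 and 5828 on polymer X. The 3 ITPR1 transcripts listed differed little, with folds between 10.81 and 10.85, which says little about splicing because transcripts of a gene share most of their tags.

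ITPR3 (NM_002224, chromosome 6, 33589156 to 33664348) was the most abundant IP3 receptor in both conditions. Its FPKM was 29.1 and 30.05 on TCP and 73.0 and 84.3 on polymer X. Every polymer X value was thus more than double the TCP values, although the polymer X replicates themselves differed by 1.15-fold. The log2 fold change was 1.38 (replicate SD 0.15).

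ITPR2 (NM_002223, chromosome 12, 26488270 to 26986131, minus strand) differed least of the 10 genes. Its FPKM was 3.25 and 3.46 on TCP, against 3.25 and 2.91 on polymer X. The higher polymer X value and the lower TCP value were 3.249 and 3.254, so the groups were barely apart, and the log2 fold change of -0.10 was no larger than its replicate SD of 0.10.

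As FPKM is scaled to transcript length, levels can be set side by side across the family. The summed FPKM of the 3 IP3 receptors was 33.6 and 34.8 on TCP and 89.2 and 101.5 on polymer X. ITPR1 made up 3.69% ± 0.137 (SD, n = 2) of this sum on TCP and 14.3% ± 0.317 (SD, n = 2) on polymer X. ITPR2 went the other way, from 9.82% ± 0.199 to 3.25% ± 0.546 (SD, n = 2), and ITPR2 was at 2.67 times the level of ITPR1 on TCP and at 0.227 times on polymer X. ITPR3 supplied 86.5% ± 0.0624 on TCP and 82.4% ± 0.862 on polymer X (SD, n = 2). With the listed transcripts of each gene summed in place of the highest one, the share of ITPR1 was 10.2% on TCP and 33.3% on polymer X, since ITPR1 has 3 listed transcripts and the other receptors have 1 each, and ITPR2 was at 0.894 times the level of ITPR1 on TCP. The higher ITPR1 share on polymer X was thus seen either way. Transcripts of a gene share most of their tags, so summing counts those of ITPR1 more than once. The summed values therefore do not bear on ITPR2 standing above ITPR1 on TCP.

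**Figure D2:**
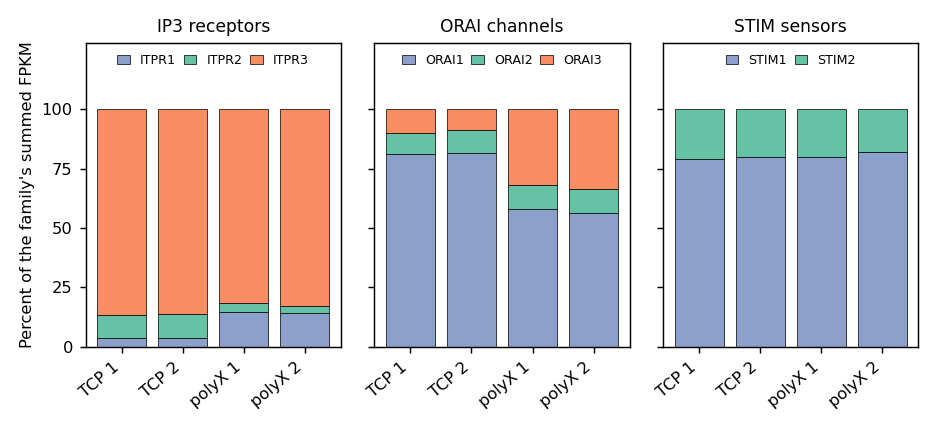
Share (percent) of each gene in the summed FPKM of its family, for the IP3 receptors, the ORAI channels and the STIM sensors, with 1 bar per library. The ITPR1 share is near 4% in both TCP bars and near 14% in both polymer X bars, the ORAI3 share is near 9% against 33%, and the STIM bars differ little between the conditions.

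TPCN1 (NM_001301214, chromosome 12, 113682066 to 113736389) stood second by the log2 fold change. Its FPKM was 6.80 and 6.71 on TCP and 39.5 and 44.7 on polymer X. The TCP replicates were nearly equal and lay far below the polymer X replicates, which differed by 1.13-fold. The means were 6.75 ± 0.0629 and 42.1 ± 3.67 (SD, n = 2), and the log2 fold change was 2.47 (replicate SD 0.12). The 5 TPCN1 transcripts listed start at 3 different hg19 positions, and their folds lay between 6.10 and 6.24. Its paralog TPCN2 was expressed far less, at 1.47 and 1.19 on TCP and 2.42 and 2.53 on polymer X. By limma its log2 fold change of 0.58 (SE 0.09, adjusted p = 0.0002) was short of the minimum of 1.

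The sensors STIM1 and STIM2 were both modestly lower on polymer X. STIM1 (NM_003156, chromosome 11, 3876933 to 4114440), the principal sensor of store depletion, was at 19.5 and 20.7 FPKM on TCP and at 15.6 and 15.5 on polymer X. STIM2 (NM_020860, chromosome 4, 26862313 to 27027003), which responds to smaller losses of store calcium, was at 5.11 and 5.25 on TCP and at 3.91 and 3.41 on polymer X. Neither gene overlapped between groups, nor did 90.4% of all tested genes. The log2 fold changes of STIM1 and STIM2 were -0.35 (replicate SD 0.06) and -0.41 (replicate SD 0.11). STIM1 kept close to the same part of the summed STIM level, 79.5% ± 0.388 on TCP and 80.9% ± 1.42 on polymer X (SD, n = 2), a difference about the size of the polymer X spread.

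All 3 ORAI genes were higher on polymer X, ORAI3 by far the most. ORAI1 (NM_032790, chromosome 12, 122064455 to 122079946), the pore subunit of the classical store-operated channel, was at 16.8 and 15.5 FPKM on TCP and at 20.6 and 19.3 on polymer X. These groups lay apart by a margin of the same order as the difference between replicates, and the log2 fold change was 0.29 (replicate SD 0.10). ORAI3 (NM_152288, chromosome 16, 30960405 to 30966259), which can also join ORAI1 in channels gated by arachidonic acid derivatives, was at 2.08 and 1.70 on TCP and at 11.4 and 11.6 on polymer X. Both polymer X values were more than 5 times either TCP value, and the log2 fold change was 2.11 (replicate SD 0.13). Its TCP level rests on 174 and 167 tags, the fewest of the 10 genes, and its TCP replicates differed by 1.22-fold, the most of any member in either group. ORAI2 (NM_001126340, chromosome 7, 102073977 to 102097268) was at 1.87 and 1.80 on TCP and at 3.45 and 3.46 on polymer X, which gives 0.65 as its log2 fold change (replicate SD 0.03). ALKBH4 on the opposite strand overlaps ORAI2 by 602 bases, and tags were counted without regard to strand, so part of the ORAI2 signal could not be separated from ALKBH4, which was at 3.00 to 3.83 FPKM. No listed gene overlapped the span of any other member.

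The summed ORAI level was 20.8 and 19.0 FPKM on TCP and 35.4 and 34.3 on polymer X. ORAI1 accounted for 81.3% ± 0.404 of it on TCP and 57.2% ± 1.32 on polymer X (SD, n = 2), and ORAI3 for 9.47% ± 0.723 and 32.9% ± 1.09 (SD, n = 2). With all listed transcripts summed, of which ORAI2 has 4 and the others 1 each, ORAI2 was at 28.7% on TCP and 30.3% on polymer X. ORAI3 was then at 7.44% and 25.4%. The sum counts tags shared by the ORAI2 transcripts more than once, so it does not bear on the order of ORAI2 and ORAI3. The higher ORAI3 share on polymer X was seen either way. The level of ORAI1 was 8.61 ± 0.700 times that of ORAI3 on TCP and 1.74 ± 0.0978 times on polymer X (SD, n = 2). As the STIM level was lower, the ratio of summed ORAI to summed STIM was 0.790 ± 0.0805 on TCP and 1.82 ± 0.00214 on polymer X (SD, n = 2). ORAI transcripts thus stood below STIM transcripts in both TCP libraries and above them in both polymer X libraries. With all listed transcripts summed the ratio was 0.342 on TCP and 0.801 on polymer X, so it was higher on polymer X either way. STIM1 and STIM2 have 3 listed transcripts each, and that sum counts their shared tags more than once. Its place below 1 is therefore not read.

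ATP2A2 (NM_001681, chromosome 12, 110719032 to 110788897), the SERCA pump of most tissues, was at 66.1 and 66.5 FPKM on TCP and at 40.2 and 38.7 on polymer X. The replicates were tight in both groups, and the log2 fold change was -0.74 (replicate SD 0.04), at percentile 16.9 of all tested genes. The other listed ATP2A2 transcript gave a log2 fold change of -0.54. The ratio of summed IP3 receptors to ATP2A2 was 0.508 and 0.522 on TCP and 2.22 and 2.63 on polymer X. Transcripts for the release channels were therefore outnumbered by pump transcripts on TCP and exceeded them on polymer X. With all listed transcripts summed, which counts shared tags more than once, the ratios were 0.324 and 1.72.

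By the rule applied to all tested genes (limma, Benjamini-Hochberg adjusted p below 0.05, log2 fold change of 1 or more in either direction), ITPR1, ITPR3, ORAI3 and TPCN1 were called higher, 4 of the 10 members, where 10.7% of the 11964 tested genes were. None of the 10 was called lower, where 9.45% of all genes were. The values of the groups did not overlap for 10 of 10 members, nor for 90.4% of all tested genes. Since the members were picked with these values in view, nothing is read from these counts. The median log2 fold change of the members was 0.47, and that of all tested genes was -0.06. Quantile normalization changed the log2 fold change by over 1.5 times for ORAI1 (0.48), ORAI2 (0.41), STIM1 (-0.17), ATP2A2 (-0.42) and ITPR2 (-0.29), and gave 1.65 for ITPR3, with directions kept.

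**Figure D3:**
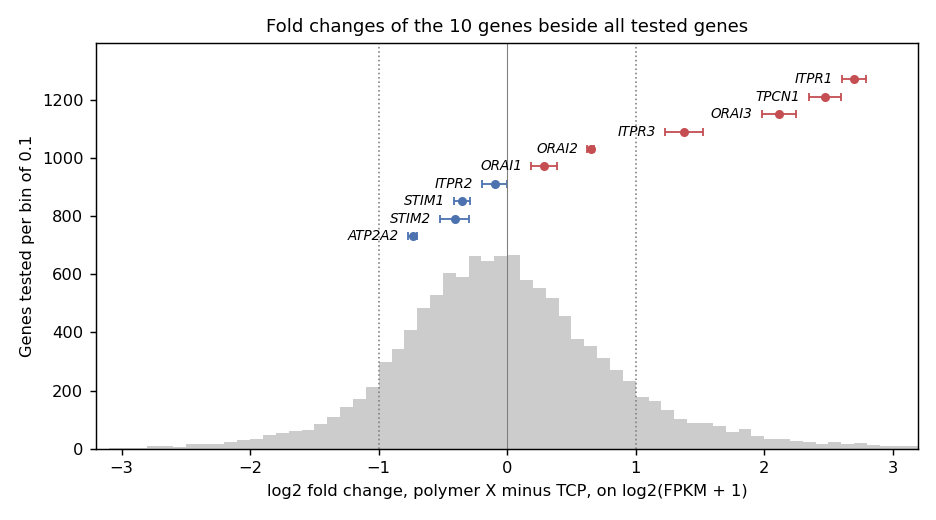
Log2 fold changes of the 10 genes on log2(FPKM + 1), polymer X minus TCP, as points with a bar of 1 replicate SD to each side, above a histogram of all 11964 tested genes in bins of 0.1; dotted lines mark -1 and 1 and the height of a point has no scale. ITPR1 at 2.70, TPCN1 at 2.47, ORAI3 at 2.11 and ITPR3 at 1.38 lie past the right line, and ATP2A2 at -0.74 is the lowest.

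The promoters of the 3 genes with the largest log2 fold changes are shown, a choice made from those values. Hypoxia, STAT and interferon signals each have a short recognition sequence that can be looked up in them. Sequences are the 250 bases before the gene start from RefSeq (build GRCh38.p14, 5′ to 3′ on the plus strand), and 8 of the 10 members had at least 1 such window, 13 windows in all. Both strands were searched for ACGTG, the core of the hypoxia response element, for TTCNNNGAA, the STAT site, and for a form of the interferon response element, TTTC and TTTC with 2 bases of any kind between them. Capitals mark the matches.
ITPR1, chr3:4493098-4493347: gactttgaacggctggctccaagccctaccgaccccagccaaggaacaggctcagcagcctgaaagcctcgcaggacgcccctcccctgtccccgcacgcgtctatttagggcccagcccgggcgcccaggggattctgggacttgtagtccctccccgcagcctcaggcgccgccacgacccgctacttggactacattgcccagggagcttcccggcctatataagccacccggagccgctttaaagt
ORAI3, chr16:30948818-30949067: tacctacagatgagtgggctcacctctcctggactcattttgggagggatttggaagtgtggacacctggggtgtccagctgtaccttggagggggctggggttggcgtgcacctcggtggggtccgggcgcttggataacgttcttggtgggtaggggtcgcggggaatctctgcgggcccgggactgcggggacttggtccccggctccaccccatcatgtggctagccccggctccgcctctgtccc
TPCN1, first start, chr12:113221214-113221463: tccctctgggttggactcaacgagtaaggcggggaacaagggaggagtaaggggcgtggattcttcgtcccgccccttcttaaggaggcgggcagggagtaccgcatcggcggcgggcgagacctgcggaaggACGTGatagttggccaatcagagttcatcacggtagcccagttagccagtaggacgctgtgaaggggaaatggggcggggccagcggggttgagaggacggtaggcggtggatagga
TPCN1, second start, chr12:113244118-113244367: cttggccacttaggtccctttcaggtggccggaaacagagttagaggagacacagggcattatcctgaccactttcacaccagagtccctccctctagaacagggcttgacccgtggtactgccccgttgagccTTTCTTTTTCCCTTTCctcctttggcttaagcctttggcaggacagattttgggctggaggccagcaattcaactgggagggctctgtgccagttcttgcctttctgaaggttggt

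The ITPR1 and ORAI3 windows held none of the 3 sequences. The window of the first TPCN1 start held 1 ACGTG, beginning 117 bases before the start. The window of the second TPCN1 start held 2 overlapping copies of the interferon response element, beginning 116 and 110 bases before it. The TPCN1 windows were not matched to the hg19 starts of its listed transcripts. These distances may therefore not apply to the transcript whose fold change is given. Among the other members, ORAI2 alone had a match, with ACGTG on either strand. Over all 35116 windows of the same length in the table, 18.5% held ACGTG, 6.57% held TTCNNNGAA and 3.02% held the interferon response element. Among the 13 member windows, 2 held ACGTG, 0 held TTCNNNGAA and 1 held the interferon response element. A match is a run of letters, not a shown binding site, and the absence of one concerns only these windows.

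The wider calcium machinery was followed with 9 lists of 143 other genes, grouped by role, all of which were found in the table and 96 of which passed the filter on low values. Of these 96 genes, 8 rose and 7 fell on polymer X by the same rule, that is 8.33% and 7.29%, against 10.7% and 9.45% of all genes. The median log2 fold change was 0.04 over the 96 genes and -0.06 over all genes. Both shares were close to those of all genes, so nothing is read from them. Counts of called genes in single lists below are also to be set beside 10.7% and 9.45%. An unadjusted p under 0.05 with no minimum on the fold change was common among all tested genes, with 37.9% higher and 44.1% lower, so the counts at that threshold for single lists carry little information.

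**Figure D4:**
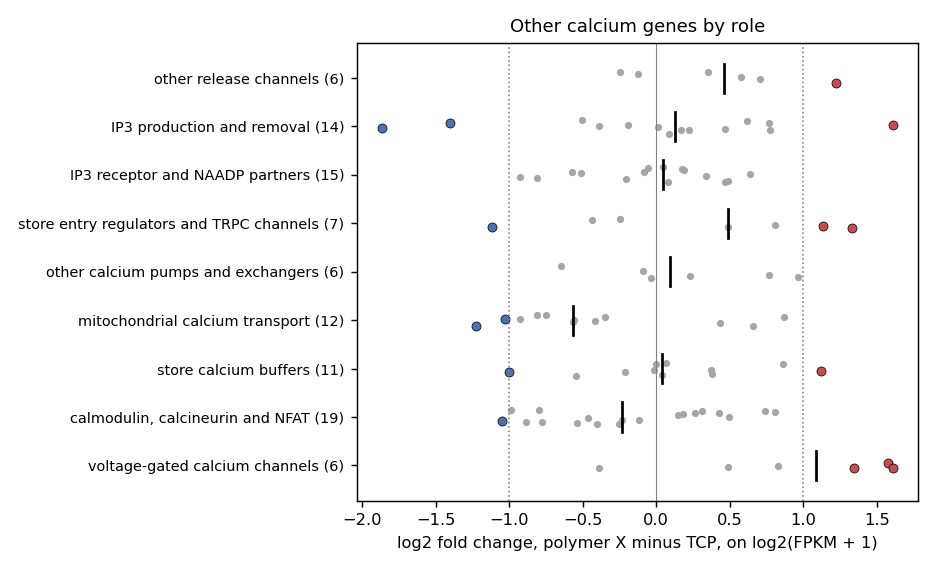
Log2 fold changes on log2(FPKM + 1), polymer X minus TCP, of the 96 tested genes in 9 lists by role, with the number tested in brackets; red and blue points were called higher and lower, grey points were not called, black bars are list medians and dotted lines mark -1 and 1. The voltage-gated channel list has its median at 1.09 and the mitochondrial list at -0.56. The voltage-gated list includes CACNA2D2 and CACNB4, which passed the filter only through polymer X.

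Among other release channels, MCOLN3, a calcium-permeable channel of endosomes and lysosomes, was the 1 gene of 6 tested that passed. It rose from 2.34 and 2.52 FPKM to 6.76 and 7.30, or by 1.23 on the log2 scale (standard error 0.07, limma adjusted p = 4.1e-07). The ryanodine receptors, which release store calcium in muscle and neurons, were not expressed to a level that could be tested, with RYR1, RYR2 and RYR3 at or below 0.088 FPKM in every library. ITPR1, ITPR2 and ITPR3 were therefore the only store release channels of those families with an FPKM of at least 1 in these cells.

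In the list for IP3 production and removal, 1 of 14 genes rose and 2 fell, against 10.7% and 9.45% of all genes. PLCB4, a phospholipase C driven by Gq-coupled receptors, fell from 33.3 FPKM in both TCP libraries to 8.51 and 8.35, for which limma gave a log2 fold change of -1.86 (SE 0.06, adjusted p = 6.1e-09). PLCE1, a phospholipase C regulated by RAS-family GTPases, fell from 4.35 and 4.18 to 0.998 and 0.988 (log2 fold change -1.40). PLCE1 passed the filter only through TCP, and PLCH1, which was not called, only through polymer X. ITPKA, the kinase that turns IP3 into IP4 and so removes it, rose from 2.75 and 2.67 to 10.8 and 9.89 (limma log2 fold change 1.61, SE 0.07, adjusted p = 5.6e-08). The enzymes PLCG1 and PLCG2, which act below tyrosine kinases, had log2 fold changes of 0.47 and 0.77 and did not reach the minimum of 1. Of the 15 tested partners of the IP3 receptors and of the NAADP pathway, 0 were called by limma, while 6 higher and 5 lower genes had an unadjusted p under 0.05, as did 37.9% and 44.1% of all genes, and JPT2, a binding protein for NAADP, was at -0.81.

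Store entry regulators and TRPC channels had 2 of 7 genes that rose and 1 that fell, against 10.7% and 9.45% of all genes. TMEM178A, reported to restrain store-operated entry, rose from 0.097 and 0.083 FPKM to 1.71 and 1.77 (log2 fold change 1.33, standard error 0.08). That value was 0.86 and no longer called under quantile normalization, and 3.28 with a pseudocount of 0.1. Its TCP level rests on 5 tags in each library. TMEM178A and CRACR2B passed the filter only through polymer X, so their direction was set in advance. TRPC1, a cation channel that works beside ORAI1, rose from 2.96 and 3.40 to 8.28 and 8.06 (log2 fold change 1.14). SLC35G1, a partner of STIM1, fell from 2.80 and 2.63 to 0.704 and 0.722 (log2 fold change -1.12). It passed the filter only through TCP, so its direction was set in advance too. SARAF, which slows STIM1 activation, had a log2 fold change of 0.49 and was not called.

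None of the 6 tested genes among the other pumps and exchangers was called by limma, while 3 higher and 1 lower gene had an unadjusted p under 0.05, against 37.9% and 44.1% of all genes. The SERCA paralogs ATP2A1 and ATP2A3 had log2 fold changes of 0.77 and 0.96, short of the minimum and opposite in sign to ATP2A2. ATP2A3, at 0.305 and 0.313 FPKM on TCP, passed the filter only through polymer X. In mean FPKM, ATP2A1 and ATP2A3 were 2.28-fold and 5.03-fold higher on polymer X, as the log2(FPKM + 1) scale understates changes at low levels. Both stayed at low levels, at most 2.86 and 1.72 FPKM against at least 38.7 for ATP2A2, so ATP2A2 remained the main SERCA transcript. The surface pumps ATP2B1 and ATP2B4 had log2 fold changes of -0.09 and 0.23.

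Mitochondrial calcium transport had 0 genes of 12 that rose and 2 that fell by limma, against 10.7% and 9.45% of all genes. At an unadjusted p under 0.05, 3 genes were higher and 9 lower, where 37.9% and 44.1% of all genes were. LETM1, an inner membrane ion exchanger, fell from 10.7 and 10.9 FPKM to 3.94 and 4.14 (log2 fold change -1.23, standard error 0.07, adjusted p = 1.8e-07 from limma). MCU, the pore of the mitochondrial uniporter, fell from 20.4 and 19.1 to 9.31 and 9.08, a log2 fold change of -1.03 that came to -0.91 under quantile normalization, -0.99 after scaling to a common median and -0.98 without TCP replicate 1, in each case no longer called. The outer membrane channels VDAC1, VDAC2 and VDAC3, through which calcium from the store reaches mitochondria, had log2 fold changes of -0.93, -0.56 and -0.75, below the size needed for a call. The exchanger SLC8B1, which carries calcium out of mitochondria, was the highest of the list at 0.87.

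Among the calcium buffers of the store, CALR, the major one, was at 609 and 618 FPKM on TCP and at 595 and 630 on polymer X, so that the groups overlapped. RCN3 rose from 6.49 and 8.19 to 16.6 and 17.6 FPKM (log2 fold change 1.12), and was 0.98 and not called without TCP replicate 1. CALU fell from 47.5 and 48.7 to 24.7 and 22.4 (adjusted p = 4.4e-07 from limma, with a log2 fold change only just past the minimum), and was not called under either scaling, at -0.73 and -0.96, nor without TCP replicate 2 or polymer X replicate 2, at -0.99 and -0.94. OPN1SW on the opposite strand overlaps CALU but was at most at 0.405 FPKM.

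In the list for calmodulin, calcineurin and NFAT, the readers of cytosolic calcium, 0 of 19 genes rose by limma, while 7 higher and 10 lower genes had an unadjusted p under 0.05, beside 37.9% and 44.1% of all genes. CALM2 and CALM3, which encode calmodulin, had log2 fold changes of -0.78 and -0.80 and were not called. Of the NFAT factors, NFATC1 had a log2 fold change of 0.50 and NFATC3 one of -0.88, and RCAN1, a calcineurin inhibitor whose gene NFAT activates, was at -0.23.

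Voltage-gated calcium channels had 3 of 6 tested genes that rose and 0 that fell by limma, against 10.7% and 9.45% of all genes. At an unadjusted p under 0.05, 5 genes were higher and 1 lower, where 37.9% and 44.1% of all genes were. The other 12 genes of the list were not tested. The 3 genes that rose encode auxiliary subunits. CACNB1 rose from 3.31 and 3.11 FPKM to 10.8 and 13.0 (log2 fold change 1.61, standard error 0.09, adjusted p = 2.1e-07 from limma) and CACNA2D2 from 0.505 and 0.678 to 3.96 and 3.51 (log2 fold change 1.57). CACNA2D2 and CACNB4 passed the filter on low values only through polymer X. Their direction was thus set in advance, though they count among the 6 tested genes. CACNB3, named after its values were seen, was at 8.18 and 9.20 on TCP and at 23.8 and 23.4 on polymer X. None of the 10 pore-forming subunits of the list reached an FPKM of 1 in any library, the highest being CACNA1H at 0.797.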

How the data were processed

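RNA-seq was performed on 4 SKOV3 libraries. The authors deposited FPKM values per RefSeq transcript of hg19, made with HOMER (analyzeRepeats.pl, exons, both strands, per the file headers) and rounded to 3 decimals, and the submitters' processing notes also name STAR 2.4.0 and DESeq. FPKM are not counts, so no count model was used. In each library FPKM times length came in steps worth 1 tag, which gave the tags scaled to and the tags per gene (low values lay within 0.1 of a whole number). Tag numbers bear on counting error only, not on other differences between libraries.

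Of 50078 rows, the one with the highest mean FPKM was kept for each of 19475 symbols. The 11964 genes that reached an FPKM of 1 in 2 or more libraries entered limma 3.58.1 (R 4.3.3) as log2(FPKM + 1), with a trend on the mean and Benjamini-Hochberg adjustment. Calls needed an adjusted p below 0.05 and a log2 fold change of 1 or more in either direction. The smallest two-sided p of an exact permutation test of 2 against 2 libraries is 0.333, and each limma p rests on the spread limma shares across genes. The fit was also run on simulated data with known changes, which checks the code and not the error rate in these libraries.

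The members, the 9 calcium lists and the settings were chosen with earlier results of these data known. Named beside the members were, per list, the 2 largest rises and the 2 largest falls among called genes. Any other gene was named after its values were seen, and 1 gene that met the rule is not reported here. Replicate SD of a log2 fold change is the root of the summed variances of the groups. Plots were drawn with matplotlib 3.10.9. Protein sequences were not used here, nor were promoter windows of ITPR2 and ORAI1.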

Additional observations from a re-analysis of the deposited data

How the results depend on the processing

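The 10 members kept their direction under the 12 alternatives run, or the 11 in which a gene with a mean FPKM under 5 could be fitted. The log2 fold change lay between 2.61 and 3.34 for ITPR1 and between 1.28 and 1.65 for ITPR3. It lay between 2.02 and 2.55 for ORAI3 and between 2.39 and 2.62 for TPCN1. The members were picked with these values in view and the alternatives reuse the same libraries, so this is a description only. The members' median log2 fold change moved to 0.59 with a pseudocount of 0.1, 0.56 with transcripts summed and 1.38 with a mean FPKM minimum of 5, where 7 of the 10 remained. The median of the calcium lists was 0.045 and moved to 0.023 with no filter, -0.054 with that minimum, 0.19 under quantile normalization, 0.087 with a common median, 0.083 with transcripts summed, while leaving out 1 library at a time gave 0.038 to 0.060, the highest without polymer X replicate 2. It is too close to 0 for its sign to be read.

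Of all genes, 1285 were called higher and 1131 lower. With a mean FPKM minimum of 5, 702 were higher, 42.2% of all calls in place of 53.2%. The counts were 4477 and 5212 with no minimum on the fold change, and 281 and 150 with a log2 minimum of 2. Over all tested genes, a pseudocount of 0.1 gave 1837 of 11964 called higher. Summing transcripts gave 1644 of 12490, and the FPKM minimum gave 702 of 8166. The counts of the calcium lists moved the same way, so nothing particular to calcium genes is read from them. For these lists, 8 of 96 higher became 14 of 96 with a pseudocount of 0.1, 5 of 69 with the FPKM minimum and 16 of 106 with transcripts summed. With no minimum on the fold change 41 were higher and 38 lower, and at a minimum of 2 there were 0 and 0. Leaving out each library in turn, a test added after the data were seen in which the lone library is assumed to vary like the other group, gave 7 to 9 higher and 6 to 8 lower. With the replicate block, 1285 and 1131 genes and 8 and 7 list genes were called. Libraries with the same number had deviations from their group means that correlated at 0.093, so they share only a number and no pairing was assumed. Where a value moved, the cause was not tested.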

Other observations

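Several calcium genes did not pass the filter on low values and so were not tested, but lay apart between the groups. The groups also did not overlap for 90.4% of all tested genes, so nothing is read from this. The genes named here were chosen after their values were seen. CACNA1H, the pore of a low-voltage calcium channel, was at 0.065 and 0.041 FPKM on TCP and at 0.770 and 0.797 on polymer X. CAMK2B, a calmodulin-dependent kinase, was at 0.206 and 0.188 on TCP and at 0.995 and 1.54 on polymer X. TRPC4, a receptor-operated cation channel, was at 0.983 and 0.949 on TCP and at 0.244 and 0.226 on polymer X. TRPC6 of the same family was at 0.227 and 0.165 on TCP and at 0.527 and 0.668 on polymer X. SLC8A2, a sodium-calcium exchanger, was at 0.061 and 0.052 on TCP and at 0.421 and 0.347 on polymer X.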
